A study of Mus musculus with 32 samples.

Results

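The 9 genes described here are *Cd3d*, *Cd3e*, *Cd3g* and *Cd247*, which encode the signaling chains of the T cell receptor, *Cd4*, *Cd8a* and *Cd8b1*, which encode its coreceptors, and *Lck* and *Zap70*, which encode the first kinases that it engages. They were taken by symbol from 29511 genes counted by RNA sequencing of bulk mouse tissue, and their levels were followed in 2 groups of mammary tumors and 4 groups of lungs. All hosts were female FVB/N mice, either WT or constitutive *Clic4* KO, with exon 2 of the gene excised in every cell. KO and WT hosts were littermates from heterozygous parents. The 6DT1 line, a mammary tumor line derived from an explant of the same strain, was injected into the fourth mammary fat pad, and the tumor cells themselves carried *Clic4* in both kinds of host. Primary tumors were taken 14 days later from 6 KO and 6 WT hosts, premetastatic lungs at the same time from 6 KO and 6 WT hosts, and control lungs from 4 KO and 4 WT mice at baseline, without a graft. Replicates are the numbered samples of a group, which the study describes as independent animals. Neither the labels nor the study's text says which tumors and lungs came from the same mouse.

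The T cell receptor recognizes peptides held by MHC molecules but has no signaling tail of its own. CD3 gamma, delta, epsilon and zeta chains carry the tyrosine motifs that LCK, brought in by CD4 or CD8, phosphorylates, and ZAP-70 docks on the phosphorylated motifs and passes the signal to the adaptors LAT and SLP-76. CD4 marks helper and regulatory T cells and CD8 marks cytotoxic T cells, but *Cd4* is also transcribed by some myeloid cells, *Cd8a* without *Cd8b1* by a subset of dendritic cells, and *Cd247*, *Lck* and *Zap70* by NK cells.

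On GRCm38, 3 of the CD3 genes lie together on chromosome 9. *Cd3g* (ENSMUSG00000002033, minus strand, 44969572 to 44980431) and *Cd3d* (ENSMUSG00000032094, plus strand, 44981786 to 44987339) face away from each other across 1354 bases, and *Cd3e* (ENSMUSG00000032093, minus strand, 44998740 to 45009627) lies 11.4 kb beyond *Cd3d*. *Cd247* (ENSMUSG00000005763, 165788681 to 165877277) and *Zap70* (ENSMUSG00000026117, 36761798 to 36782818) lie far apart on the plus strand of chromosome 1. *Cd8b1* (ENSMUSG00000053044, 71322788 to 71337494) and *Cd8a* (ENSMUSG00000053977, 71373427 to 71379173) are neighbours on the plus strand of chromosome 6, with *Cd4* (ENSMUSG00000023274, 124864692 to 124888221, minus strand) further along. *Lck* (ENSMUSG00000000409, 129548344 to 129573641, minus strand) lies on chromosome 4, 5.64 Mb from *Clic4* itself, so an effect of DNA that flanks the knockout allele and an effect of the missing gene cannot be told apart for *Lck*.

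The 250 bases before the RefSeq transcription starts (GRCm38.p6) of the *Cd3d* and *Cd3g* pair, of *Cd3e* and of the first *Zap70* start are shown because the first 3 genes share a locus and because *Zap70*, *Cd3d* and *Cd3g* gave the tumor result below. Each is written 5′ to 3′ on the strand of its gene, and capitals mark matches to the Ets motif AGGAAG or the Runx motif TGTGGT on either strand, both of which are letters bound by factor families known from T cell genes. The windows are chr9:44981536-44981785 on the plus strand for *Cd3d*, chr9:44980432-44980681 on the minus strand for *Cd3g*, chr9:45009612-45009861 on the minus strand for *Cd3e* and chr1:36761548-36761797 on the plus strand for *Zap70*.
Cd3d: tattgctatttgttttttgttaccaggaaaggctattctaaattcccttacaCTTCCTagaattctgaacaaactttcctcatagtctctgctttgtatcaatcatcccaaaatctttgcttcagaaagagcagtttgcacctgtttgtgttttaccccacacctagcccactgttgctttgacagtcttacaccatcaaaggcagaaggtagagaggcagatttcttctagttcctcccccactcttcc
Cd3g: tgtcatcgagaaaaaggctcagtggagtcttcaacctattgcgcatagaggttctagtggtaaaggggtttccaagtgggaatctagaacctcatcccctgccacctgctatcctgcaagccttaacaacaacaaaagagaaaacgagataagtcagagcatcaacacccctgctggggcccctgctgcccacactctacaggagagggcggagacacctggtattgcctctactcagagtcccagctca
Cd3e: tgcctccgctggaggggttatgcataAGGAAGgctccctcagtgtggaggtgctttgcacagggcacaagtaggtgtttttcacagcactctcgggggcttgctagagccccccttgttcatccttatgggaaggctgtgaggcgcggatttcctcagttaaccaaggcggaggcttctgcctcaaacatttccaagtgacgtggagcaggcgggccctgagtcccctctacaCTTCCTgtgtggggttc
Zap70: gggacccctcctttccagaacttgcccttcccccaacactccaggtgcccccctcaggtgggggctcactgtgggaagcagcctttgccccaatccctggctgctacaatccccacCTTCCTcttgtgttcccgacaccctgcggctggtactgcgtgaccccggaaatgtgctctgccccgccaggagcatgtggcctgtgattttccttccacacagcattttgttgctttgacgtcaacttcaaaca
RefSeq starts were found for 7 of the 9 genes, 10 starts in all, with none for *Cd4* and *Cd8b1*. AGGAAG was present in 7 of these 10 windows, against 29.6% of 32536 mouse promoters of the same length, and TGTGGT in 2 of 10, at 1 start of *Lck* and 1 of *Zap70*, against 14%. The E-box CANNTG was in 9 of 10 against 66.2%, the GAS letters TTCNNNGAA, bound by STAT factors, in the *Cd3d* window alone against 7.04%, and the interferon-stimulated response element (2.98%) and the TATA box TATAAA (12.3%) in none. These are counts of letters in one fixed window and say nothing of whether a factor is bound.

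Libraries held from 4446323 to 8318711 counts in genes (median 5384934). At that depth the 9 genes were thinly covered. Their counts per gene and library ran from 1 to 90 in KO tumors and from 2 to 78 in WT tumors, and from 5 to 141 in lungs. *Clic4* fell in KO lungs to 65.1 ± 7.49 FPKM (SD, n = 6) from 181 ± 30.6 (n = 6) at 14 days, and to 61.2 ± 5.98 from 165 ± 6.61 (n = 4 each) in controls, with adjusted p = 2.06e-09 and 1.73e-07. The count of a gene takes in every exon, and the KO allele keeps the others. In tumors, where the grafted cells express the gene, *Clic4* stood at 65.3 ± 4.05 FPKM in KO and 77.5 ± 2.66 in WT hosts (n = 6 each, log2 fold change -0.21, adjusted p = 0.0343). Markers of lung epithelium such as *Sftpc* summed to 13440 to 15470 CPM, counts scaled to library size with TMM factors, in lungs and to at most 8.21 in tumors.

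One library stood apart from the other tumors in markers of other cell types. The tumor labelled WT replicate 2 held 259 counts of *Glycam1*, which encodes an adhesion ligand of lymph node high endothelial venules and is also made by lactating mammary gland, against 0 to 1 in the other WT tumors and 0 to 2 in KO tumors. Its 8 B cell markers summed to 71.3 CPM, against 3.87 to 4.99 in the other WT tumors and 3.77 to 8.25 in KO tumors. The 6 markers of lymph node stroma summed to 70.5 CPM in that tumor and to between 1.66 and 4.75 in the other WT tumors and between 3.20 and 10.6 in KO tumors. *Glycam1* is one of them, so this sum is not separate from its count, and *Madcam1*, another of them, had no count. The results of the 9 genes in tumors are therefore given with this library and without it, a choice made after seeing the data.

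In all 6 groups *Lck* and *Cd3g* were the most abundant of the 9 transcripts in FPKM, the deposited unit, which corrects for transcript length. *Cd3g* came first in KO tumors at 8.36 ± 2.68 FPKM (SD, n = 6), ahead of *Lck* at 7.66 ± 1.05, and *Lck* came first in each other group, from 6.16 ± 4.94 in WT tumors (n = 6) to 10.8 ± 2.88 in KO 14-day lungs (n = 6). *Cd8b1* was the least abundant in tumors (0.865 ± 0.555 in KO and 0.628 ± 0.721 in WT hosts, n = 6 each), whereas *Cd8a* was last in every lung group, between 1.74 ± 0.680 (WT at 14 days, n = 6) and 2.26 ± 0.534 (WT controls, n = 4). The ranges of neighbours in this order overlapped in every group, so no step of the order exceeded the spread between samples. Without WT replicate 2, WT tumors had 0.336 ± 0.0891 FPKM of *Cd8b1*, 0.556 ± 0.364 of *Cd8a* and 4.24 ± 1.65 of *Lck* (SD, n = 5), which left *Lck* first and *Cd8b1* last. For scale, the constant regions *Trac* and *Trbc2* of the receptor itself stood at 5.03 ± 2.05 and 17.2 ± 2.48 FPKM in KO tumors and at 2.39 ± 1.81 and 10.3 ± 9.83 in WT tumors, and the pan-leukocyte gene *Ptprc* at 59.7 ± 9.16 and 41.2 ± 16.4 (n = 6 each). The 5 other WT tumors averaged 1.76 ± 1.05 FPKM of *Trac*, 6.51 ± 3.42 of *Trbc2* and 36.1 ± 11.95 of *Ptprc*.

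**Figure D1:**
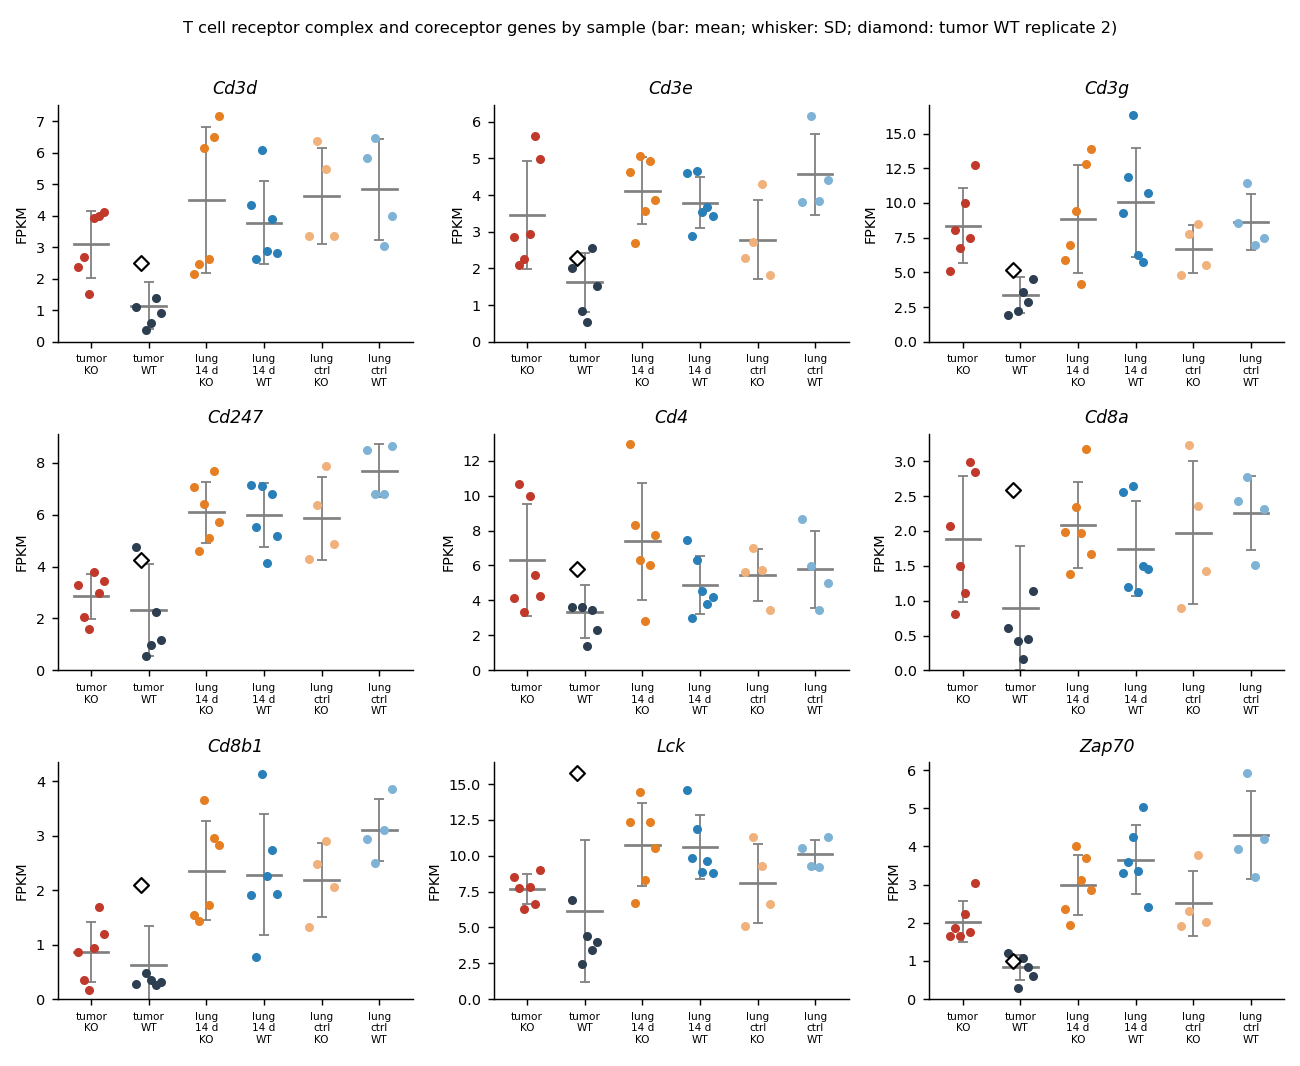
FPKM of each of the 9 genes (vertical axes) in the 32 samples, arranged by group; points are samples, bars the group means and whiskers 1 SD, cut at 0, and the diamond is the WT tumor labelled replicate 2. By group mean, WT tumors lie lowest for *Cd3d*, *Cd3e*, *Cd3g* and *Zap70*, while for *Cd8b1* and *Lck* the diamond, at 2.09 and 15.78 FPKM, sits far above the other 5 WT tumors.

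Tumors from KO hosts were first compared with those from WT hosts, which asks whether the T cell receptor machinery differs with the genotype of the host around genetically identical tumor cells. Mean FPKM was higher in KO tumors for all 9 genes. Of the 8 that passed the filter on low counts, 3 rose at an FDR of 0.05, namely *Zap70*, *Cd3d* and *Cd3g*, each by more than 2-fold, and 5 did not pass, against 2.51% of all 13830 genes tested that passed in either direction, 2.02% that passed upwards and 1.06% that passed with a 2-fold change. All 8 log2 fold changes were positive, between 0.57 and 1.48 with a median of 1.14, beside a median of -0.01 over all genes. In bulk tissue, fewer cells of a type and less RNA per cell cannot be told apart.

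Among the CD3 chains, *Cd3d* ranged from 1.53 FPKM through a median of 3.31 to 4.11 in KO tumors and from 0.37 through 1.01 to 2.51 in WT tumors. The groups overlapped through WT replicate 2 alone, whose 2.51 lay above the lowest KO values. Its mean rose 2.76-fold (log2 fold change 1.46, SE 0.35, adjusted p = 0.0391). *Cd3g* had a lowest, median and highest value of 5.09, 7.785 and 12.73 FPKM in KO hosts and of 1.94, 3.21 and 5.14 in WT hosts. Here too the overlap was a single WT library, replicate 2, which stood at 5.14 against 5.09 in the lowest KO tumor, and the rise was 2.47-fold (log2 fold change 1.305, SE 0.31, adjusted p = 0.0389). *Cd3e*, the chain that pairs with both of them, ran from 2.09 through 2.89 to 5.61 FPKM and from 0.55 through 1.76 to 2.55. WT replicates 2 and 5 lay within the KO range, and its log2 fold change of 1.13 (SE 0.34) missed the limit with adjusted p = 0.104. *Cd247*, the zeta chain that NK cells share, overlapped throughout, from 1.59 through 3.13 to 3.79 FPKM in KO and from 0.54 through 1.715 to 4.77 in WT tumors (log2 fold change 0.57, SE 0.42, adjusted p = 0.568). WT replicates 1 and 2, at 4.77 and 4.24, were higher than any KO tumor.

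None of the coreceptors passed. *Cd4* was between 3.32 and 10.67 FPKM with a median of 4.865 in KO tumors and between 1.39 and 5.82 with a median of 3.54 in WT tumors. In FPKM, KO replicates 2 and 4 were the highest, at 10.67 and 9.96, and the other 4 KO tumors lay within the WT range. Counts, not scaled to library size, did not follow that order, with 48 and 71 in KO replicates 2 and 4 and 87 and 81 in replicates 5 and 6. The test on counts gave a log2 fold change of 0.66 (SE 0.30, adjusted p = 0.304). *Cd8a* ran from 0.81 through 1.78 to 2.99 FPKM in KO and from 0.16 through 0.53 to 2.58 in WT tumors, where only replicate 2 exceeded 1.14 (log2 fold change 1.14, SE 0.49, adjusted p = 0.279). *Cd8b1*, the chain that separates cytotoxic T cells from CD8 alpha-positive dendritic cells, was too low for the test, with 0.17, 0.90 and 1.68 FPKM as lowest, median and highest value in KO tumors and 0.25, 0.335 and 2.09 in WT tumors. Replicate 2 again held the WT maximum.

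Of the kinases, *Zap70* separated the groups completely, with 1.64, 1.80 and 3.03 FPKM as lowest, median and highest value in KO tumors and 0.30, 0.91 and 1.2 in WT tumors. It rose 2.79-fold (log2 fold change 1.48, SE 0.25, adjusted p = 0.00348). In FPKM it was the single member of 9 whose groups did not overlap, and in TMM-scaled CPM *Cd3g* joined it, whereas 1.19% of all genes tested had every KO tumor above every WT tumor. This share and the like shares below were counted on counts divided by the library total. *Lck* ran from 6.30 through 7.78 to 8.99 FPKM in KO hosts and from 2.44 through 4.205 to 15.78 in WT hosts. WT replicate 2 was the highest of the 12 tumors, replicate 1 lay inside the KO range at 6.88, and the other 4 WT tumors were below every KO tumor. With all 12 the log2 fold change of *Lck* was 0.78 (SE 0.27, adjusted p = 0.173).

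Without WT replicate 2, 5 of the 8 genes tested rose, against 2.07% of 13976 genes in either direction and 1.86% upwards, and the median log2 fold change of the 8 was 1.36. *Lck* passed with a log2 fold change of 1.14 (SE 0.19, adjusted p = 0.00616), *Zap70* with 1.60 (SE 0.27, adjusted p = 0.00616) and *Cd3d* with 1.81 (SE 0.34, adjusted p = 0.0126). *Cd3g* passed with 1.49 (SE 0.33, adjusted p = 0.0327) and *Cd8a* with 1.83 (SE 0.43, adjusted p = 0.0405). *Cd4* (1.00, SE 0.24, adjusted p = 0.0546), *Cd3e* (1.23, adjusted p = 0.122) and *Cd247* (0.83, adjusted p = 0.421) did not. Groups no longer overlapped in FPKM for *Cd3d*, *Cd3g* and *Zap70*, and in TMM-scaled CPM for *Cd4* and *Lck* as well, 5 of the 9, against 1.55% of all genes with every KO tumor higher.

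**Figure D2:**
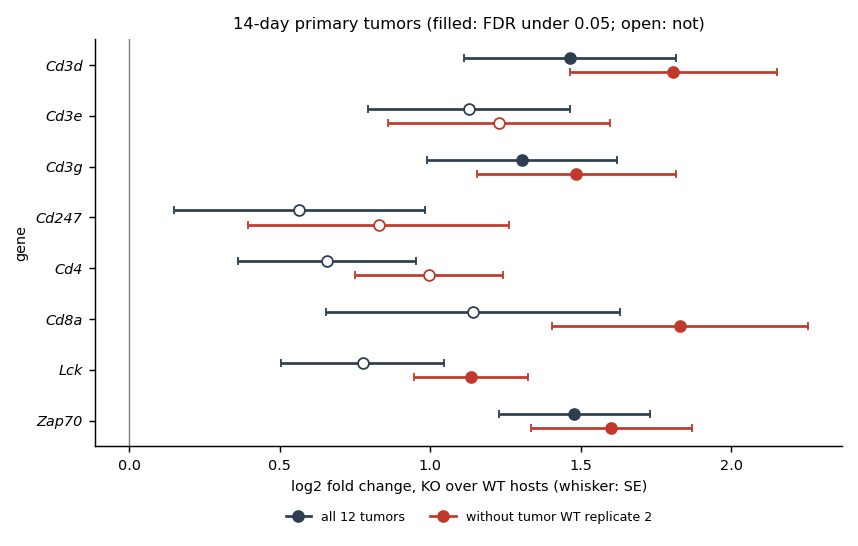
Log2 fold change of KO over WT tumors (horizontal axis, whiskers 1 SE) for the 8 genes tested, with all 12 tumors and without WT replicate 2; filled points have an adjusted p under 0.05. Every estimate lies above 0, and leaving out the one library moves *Lck* from 0.78 to 1.14 and *Cd8a* from 1.14 to 1.83.

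The calls differed in how much they leaned on single libraries. *Zap70* passed in all 12 fits that left out 1 tumor each, with adjusted p between 0.00465 and 0.0183. *Cd3g* passed in 5 of the 12, and missed without KO replicates 2, 4, 5 or 6 or WT replicates 1, 4 or 5 (adjusted p from 0.0656 to 0.119), and in those 7 fits *Zap70* was the 1 member that passed. *Cd3d* passed in 2 of the 12, without KO replicate 3 or WT replicate 2, and missed in the other 10 with adjusted p from 0.0517 to 0.118. The log2 fold change of *Cd3d* stayed between 1.29 and 1.81 and that of *Cd3g* between 1.10 and 1.49 in these fits. With no filter on low counts both missed (adjusted p of 0.069 for *Cd3d* and 0.0552 for *Cd3g*).

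Summed over the 9 genes, KO tumors held 36.6 to 65.9 CPM with a median of 50.6, and WT tumors 14.6 to 56.1 with a median of 25.3. The highest WT sum was that of replicate 2, and the other 5 ranged from 14.6 to 27.9, below every KO tumor. The lymph node stroma markers also had a higher median in KO tumors, at 6.43 CPM, than in those 5 WT tumors, at 2.48. The NK cell markers, which *Cd247*, *Lck* and *Zap70* could follow, summed to 20.8 to 38.6 CPM in KO and 13 to 40.2 in WT tumors, and 0 of the 4 NK genes tested passed (median log2 fold change 0.57). Macrophage (0 of 6, median 0.39), dendritic cell (0 of 6, median 0.04) and neutrophil markers (0 of 4, median 0.40) did not pass either. *Ptprc* had a log2 fold change of 0.63 (SE 0.21, adjusted p = 0.146), and it rose without WT replicate 2. Higher in KO tumors at an unadjusted p under 0.05 by edgeR, which 15.5% of all genes met, were *Siglech* (0.0093), *Ly6c2* (0.0117), *Ccr2* (0.0228), *Cd68* (0.0283), *Clec9a* (0.0309), *Klrd1* (0.0334) and *Cxcr2* (0.0341). *Mrc1*, *Flt3*, *Itgae* and *Xcr1* had negative log2 fold changes. Epithelial markers of the tumor summed to 484 to 570 CPM in KO and 539 to 710 in WT tumors, with or without replicate 2, and 0 of 5 passed (median -0.19). The keratins *Krt18* and *Krt8* had log2 fold changes of -0.24 (SE 0.08, adjusted p = 0.164) and -0.19 (SE 0.09, adjusted p = 0.299), *Wfdc2* had -0.36 (SE 0.14, adjusted p = 0.226), and these 3 were at an unadjusted p of 0.0102, 0.0405 and 0.0203, whereas *Epcam* and *Cdh1* were positive at 0.67 and 0.68. The part of these other cells in the difference was not tested.

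**Figure D3:**
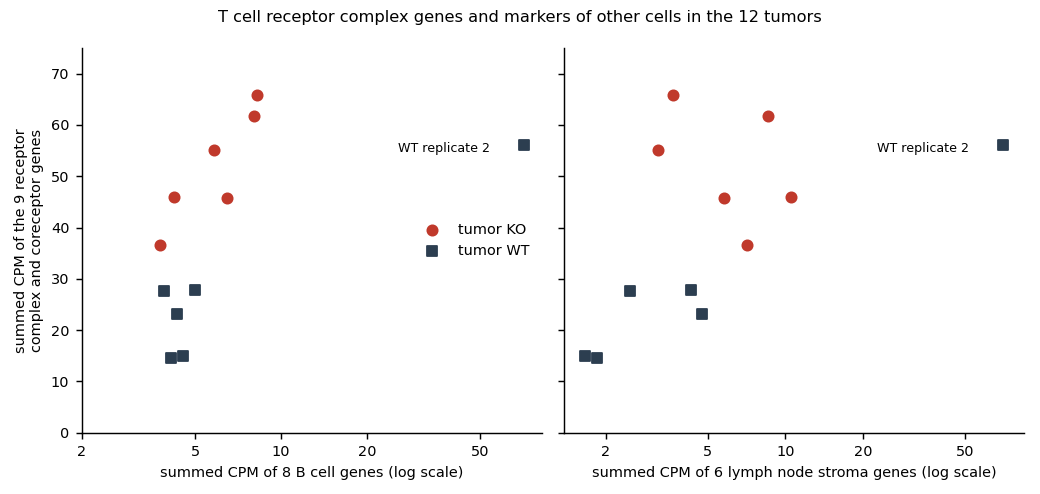
Summed CPM of the 9 genes (vertical axis) against the summed CPM of 8 B cell genes and of 6 lymph node stroma genes (horizontal axes, log scale) in the 12 tumors. WT replicate 2 stands alone at 71.3 and 70.5 CPM of these markers with a sum of 56.1 for the 9 genes, while the other 5 WT tumors lie below all KO tumors on the vertical axis.

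Genes that act next to the receptor were counted by their role, to be read against the 2.02% of all genes that rose in KO tumors. Of 18 tested adaptors, kinases and regulators of proximal signaling, 17 had positive log2 fold changes, the median was 0.61, and 2 rose, *Lcp2*, which encodes SLP-76 (0.74, SE 0.15, adjusted p = 0.0131), and *Rasgrp1*, a Ras activator downstream of the receptor (0.66, SE 0.17, adjusted p = 0.047). All 10 costimulatory and adhesion receptors were positive with a median of 0.76, and *Icos*, an inducible costimulator, was the 1 that rose (1.02, SE 0.26, adjusted p = 0.0492). It had adjusted p = 0.0827 without WT replicate 2. The T cell receptor chains *Trbc1* and *Trbc2* had log2 fold changes of 0.85 and 0.78 with adjusted p of 0.233 and 0.359, and *Trac* and *Trdc* were too low to test. None of 9 genes of resting T cells passed (median 0.55), and of 9 subset genes *Cxcr6*, a homing receptor of activated T cells, rose (0.83, SE 0.13, adjusted p = 0.00251). *Lcp2*, *Rasgrp1* and *Cxcr6* changed by less than 2-fold.

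*Lcp2* (0.84, adjusted p = 0.0079), *Rasgrp1* (0.78, adjusted p = 0.0219) and *Cxcr6* (0.81, adjusted p = 0.00827) also passed without WT replicate 2. Leaving it out raised the number that rose to 6 of 18 for proximal signaling, where 1.86% of all genes rose, among them *Grap2* (1.38), *Themis* (1.93) and *Ptprc* (0.81), which were named after their values were seen. It was 1 of 2 for the receptor chains (*Trbc2*, 1.39, adjusted p = 0.0123) and 2 of 10 for costimulation (*Cd5*, 1.40, and *Slamf6*, 1.34).

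In lungs, none of the 9 genes passed the FDR of 0.25 in any of 4 comparisons or in the interaction of genotype with the tumor, by edgeR or by DESeq2. DESeq2 gave no adjusted p to between 5 and 9 of the 9 in each of these, so its count of 0 covers the rest. In 14-day lungs the log2 fold changes of KO over WT ran from -0.12 for *Zap70* to 0.26 for *Cd3d* with a median of 0.09, and adjusted p was at least 0.869, with 0 of 9 at an unadjusted p under 0.05 by either tool. Across all 16029 genes, 0.861% passed. *Cd3e*, for example, had 2.69, 4.24 and 5.06 FPKM as lowest, median and highest value in KO and 2.88, 3.605 and 4.66 in WT lungs, and *Zap70* had 1.93, 2.995 and 4 in KO and 2.41, 3.47 and 5.04 in WT lungs. Both pairs of groups overlapped.

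In control lungs, without a tumor, all 9 log2 fold changes of KO over WT were negative, from -0.85 to -0.08 with a median of -0.39 against 0.00 over all genes, where 0.973% passed. *Zap70* was nearest to the limit. Its 4 KO control lungs had 1.91, 2.32, 3.77 and 2.03 FPKM, and its 4 WT control lungs 3.93, 5.92, 3.20 and 4.19. KO replicate 3 was the only KO lung above a WT lung, and the log2 fold change of -0.85 (SE 0.25) had adjusted p = 0.265 with an unadjusted p of 0.00294. *Cd3e* had 2.29, 2.73, 4.31 and 1.82 FPKM in KO and 3.82, 6.17, 3.85 and 4.41 in WT control lungs. KO replicate 3 again lay among the WT values and the other 3 below them (log2 fold change -0.69, SE 0.25, adjusted p = 0.328). *Lck* had 5.10, 11.3, 9.28 and 6.6 FPKM in KO and 10.57, 9.26, 9.21 and 11.33 in WT control lungs, with 2 KO lungs within the WT range (log2 fold change -0.51, SE 0.23, adjusted p = 0.403). These 3 were the members at an unadjusted p under 0.05 by both tools, a limit that 11.6% of all genes met in edgeR and 10.2% in DESeq2. In TMM-scaled CPM the *Zap70* groups did not overlap, against 3.64% of all genes with every KO control lower.

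Whether *Zap70* passed in control lungs turned on single libraries. It had adjusted p between 0.2301 and 0.2497 when KO 14-day replicate 2, WT 14-day replicates 3 or 5 or WT control replicate 4 was left out, and it did not pass in the other fits. Fitted on the 8 control lungs alone, *Zap70* (adjusted p = 0.182) and *Lck* (adjusted p = 0.218) passed. Markers of other lymphocytes also had negative medians in KO controls. B cell markers summed to 33.5 to 82.1 CPM in KO and 89.9 to 126 in WT control lungs, with a median log2 fold change of -0.69 and none passing, and NK cell markers summed to 15.3 to 40.8 and 46.1 to 70.0 CPM, with a median of -0.71 and *Prf1*, which encodes perforin, falling by 1.01 on the log2 scale (adjusted p = 0.233). The 9 genes together summed to 43.0 to 70.5 CPM in KO and 57.2 to 85.7 in WT controls. The part of those cells in the *Zap70* and *Cd3e* values was not tested.

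The presence of a tumor was followed in lungs of each genotype. Both contrasts and the interaction use the same control lungs as the comparison above, so their values are not separate evidence. In KO lungs, 14-day samples against controls gave 7 positive log2 fold changes of 9 with a median of 0.18, none passing, beside 1.05% of all genes. The 3 members with the lowest p were *Cd3e* (0.55, SE 0.24, adjusted p = 0.507), *Lck* (0.45, SE 0.21, adjusted p = 0.567) and *Zap70* (0.45, SE 0.24, adjusted p = 0.629), and 2 of 9 (*Cd3e* and *Lck*) were at an unadjusted p under 0.05 by either tool, which 8.64% of all genes met in edgeR and 7.5% in DESeq2. In WT lungs all 9 were negative, from -0.44 to -0.09 with a median of -0.28, beside 2.33% of all genes passing. *Cd247* was furthest, with 8.48, 6.81, 6.80 and 8.65 FPKM in controls and a lowest, median and highest value of 4.13, 6.165 and 7.15 at 14 days. WT 14-day replicates 1 and 3, at 7.15 and 7.09, overlapped the lower 2 controls, whereas in TMM-scaled CPM the groups did not overlap, beside 1.34% of all genes with every 14-day lung lower. Its log2 fold change was -0.44 (SE 0.17, adjusted p = 0.329), and *Cd247* was the 1 member of 9 at an unadjusted p under 0.05 by either tool, which 11.8% of all genes met in edgeR and 10.2% in DESeq2. It passed when WT lungs were fitted alone (adjusted p = 0.232).

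The interaction, which tests whether the response to a tumor differed between KO and WT lungs, was positive for all 9 genes, from 0.34 to 0.80 with a median of 0.49, and 0 of 9 passed beside 0.0499% of all genes. *Cd3e* (0.80, SE 0.33, adjusted p = 0.512) and *Zap70* (0.73, SE 0.33, adjusted p = 0.536) were the 2 of 9 at an unadjusted p under 0.05 by both tools, which 8.53% of all genes met in edgeR and 7.52% in DESeq2. The 4 receptor chains tested gave the same picture in lungs, with none passing and medians of 0.29 in KO lungs with a tumor, -0.41 in WT lungs with a tumor, 0.15 between genotypes at 14 days and -0.51 between genotypes in controls.

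**Figure D4:**
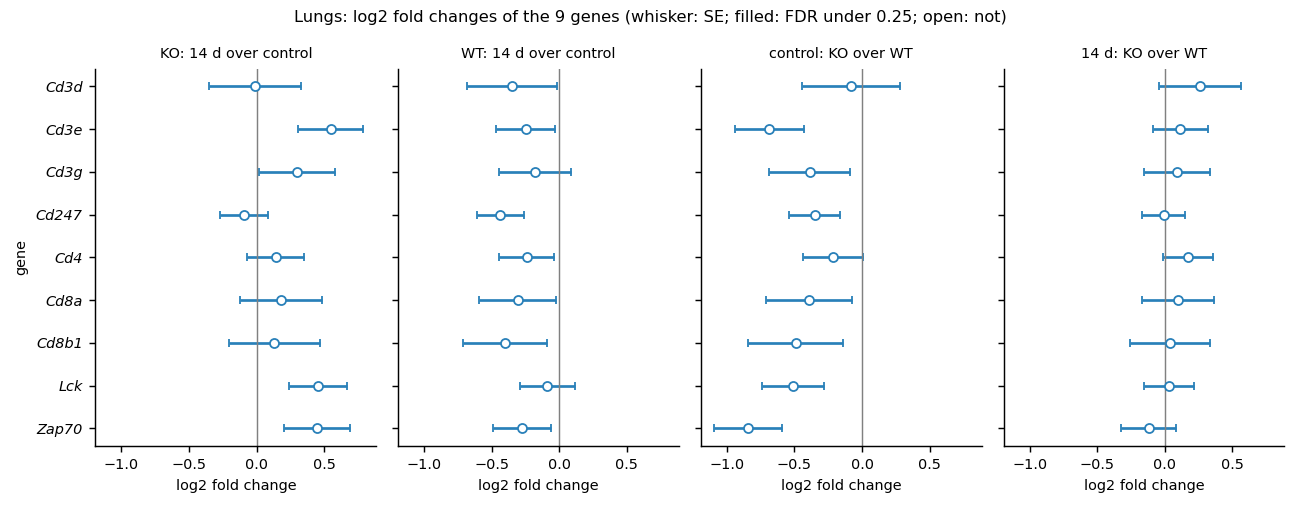
Log2 fold change (horizontal axes, whiskers 1 SE) of the 9 genes in the 4 lung comparisons; open points did not pass the adjusted p of 0.25. All points are open, those of KO against WT controls lie at or left of -0.08, and those between genotypes at 14 days lie within -0.12 and 0.26.

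Tumor and lung of day 14 were set side by side within each genotype to place the levels. Tumors and lungs were fitted as separate samples. In WT hosts 8 of 9 genes were lower in tumors than in lungs, *Cd4* being the exception, beside 38.4% of 16115 genes that were lower and 75.5% that passed in either direction. *Zap70* fell by 2.04 on the log2 scale (SE 0.24, adjusted p = 2.23e-08), from a lowest, median and highest value of 2.41, 3.47 and 5.04 FPKM in lungs to 0.30, 0.91 and 1.2 in tumors. Log2 fold changes of the other 7 that passed were -1.81 for *Cd8b1*, -1.65 for *Cd3d*, -1.375 for *Cd247*, -1.23 for *Cd3g*, -1.15 for both *Cd3e* and *Lck* and -1.04 for *Cd8a*. FPKM did not overlap between the tissues for *Cd3d*, *Cd3e*, *Cd3g* and *Zap70*, nor did TMM-scaled CPM for these and *Cd247*, beside 30% of all genes with every tumor lower. *Cd4* stood at 3.36 ± 1.5 FPKM in tumors and 4.88 ± 1.66 in lungs (SD, n = 6 each, log2 fold change -0.48, SE 0.27, adjusted p = 0.11).

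In KO hosts 2 of 9 were lower in tumors, *Cd8b1* (-1.30, SE 0.45, adjusted p = 0.0122) and *Cd247* (-0.81, SE 0.31, adjusted p = 0.0217), beside 37.2% of all genes that were lower and 74.2% that passed. *Cd247* was between 1.59 and 3.79 FPKM in KO tumors and between 4.59 and 7.68 in KO lungs, without overlap in FPKM, but the groups overlapped in TMM-scaled CPM, beside 30.4% of all genes with every KO tumor lower. *Cd3e*, *Cd3g*, *Cd4* and *Cd8a* had log2 fold changes between -0.14 and 0.00, and *Zap70* -0.44 (SE 0.21, adjusted p = 0.0559). The median of the 9 was -0.41, against -1.23 in WT hosts. Tested directly, the KO over WT difference was larger in tumors than in lungs for *Zap70*, by 1.60 on the log2 scale (SE 0.32, adjusted p = 0.0164), beside 0.558% of all genes with a larger difference and 0.707% that passed in either direction. With replicate numbers fitted as a block, as if equal numbers marked the same mouse, *Zap70* missed the limit at 1.59 (adjusted p = 0.0683). The other 8 members gave 0.48 to 1.21 and did not pass, *Cd3g* with 1.21 (adjusted p = 0.242) and *Cd3d* with 1.2 (adjusted p = 0.362) at the upper end.

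Without WT replicate 2, all 9 genes were lower in WT tumors than in WT lungs, beside 37.9% of all genes, with *Cd4* at -0.81 (adjusted p = 0.0045), *Cd8b1* at -2.70 and *Cd8a* at -1.73. The *Zap70* difference between tissues was then 1.72 (SE 0.33, adjusted p = 0.0143), beside 0.373% of all genes. Calls that turned on a single library were *Cd8a* in WT hosts, which missed with adjusted p from 0.0688 to 0.0881 without WT lung replicates 1 or 3 or WT tumor replicates 1, 3, 4 or 5, and *Cd247* in KO hosts, which missed with adjusted p from 0.0537 to 0.0621 without KO lung replicate 5 or KO tumor replicates 2 or 3. *Zap70* passed in KO hosts, with adjusted p from 0.0125 to 0.044, without KO lung replicates 1, 2 or 6, WT lung replicates 5 or 6, KO tumor replicate 6 or WT tumor replicates 1 or 5.

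**Figure D5:**
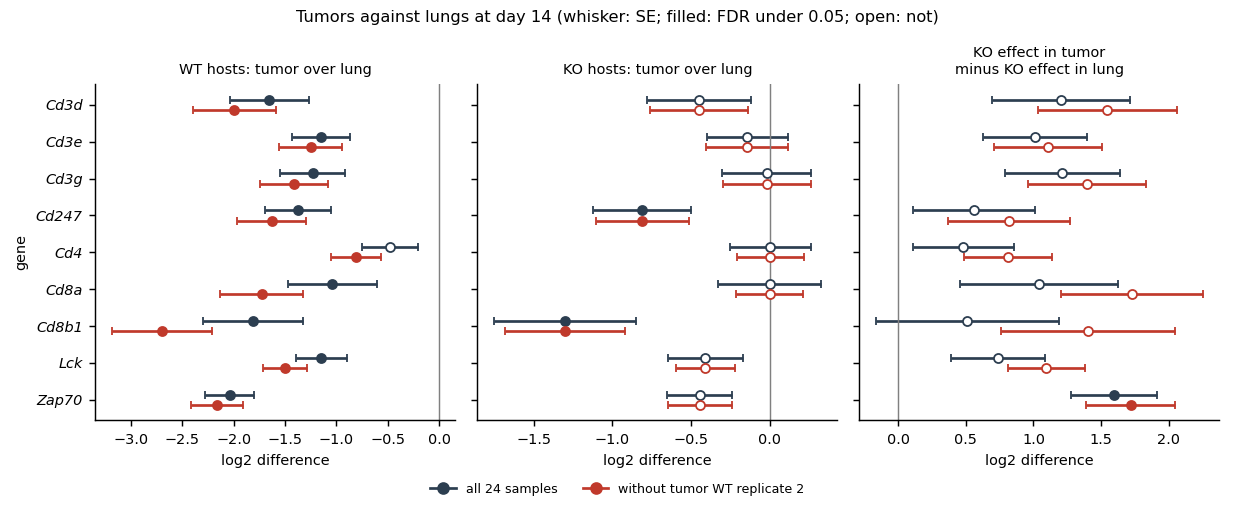
Log2 fold change of tumors over lungs at day 14 (whiskers 1 SE) of the 9 genes in WT hosts and KO hosts, and the difference between the 2, with all samples and without WT tumor replicate 2; filled points have an adjusted p under 0.05. WT estimates lie further below 0 than KO estimates, and in the difference only *Zap70*, at 1.60, is filled.

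Proportions between the genes were compared as log2 ratios of FPKM + 0.1 within each sample, so that library size cancels. None of 20 two-sided exact permutation tests (4 ratios, 5 comparisons) passed, with adjusted p between 0.606 and 0.991. The smallest exact p that these designs allow is 0.00216 for 6 against 6 samples, 0.00952 for 6 against 4 and 0.0286 for 4 against 4. *Cd8a* relative to *Cd4*, a proxy for the cytotoxic to helper balance, stood at -1.68 ± 1.28 in KO tumors and -2.09 ± 0.82 in WT tumors (SD, n = 6 each, exact permutation p = 0.515). KO tumors fell between -3.57 in replicate 2 and -0.57 in replicate 6, wider than any difference between groups. That spread depends on the FPKM scaling of *Cd4*, which was 10.67 FPKM from 48 counts in replicate 2 and 4.28 FPKM from 81 counts in replicate 6. With a pseudocount of 1 the KO minus WT difference was -0.05 in place of 0.40. The nearest to a difference was *Cd3e* relative to *Ptprc*, which relates the receptor to all leukocytes, at -4.16 ± 0.39 in KO and -4.65 ± 0.43 in WT tumors (n = 6 each, exact permutation p = 0.0693, adjusted 0.606). Without WT replicate 2 (n = 5) the WT means of these 2 ratios were -2.28 ± 0.76 and -4.62 ± 0.48, with exact permutation p of 0.351 and 0.108.

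*Cd8b1* relative to *Cd8a* averaged -1.16 ± 0.77 in KO and -0.41 ± 0.83 in WT tumors (n = 6 each, exact permutation p = 0.143, adjusted 0.606), and 0.13 to 0.46 in the 4 lung groups. *Cd4* relative to *Cd3e* averaged 0.97 ± 0.43 in KO and 0.28 ± 0.60 in WT control lungs (n = 4 each, exact permutation p = 0.114, adjusted 0.606) and 0.81 ± 1.00 and 1.05 ± 0.57 in KO and WT tumors. The groups overlapped in both ratios in each of the 5 comparisons tested, none of which set tumors against lungs. Without WT replicate 2 (n = 5) the WT tumor means were -0.43 ± 0.92 and 1.00 ± 0.62, with exact permutation p of 0.195 and 0.723.

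Across the 20 lungs, the genes most like *Cd3e* by Pearson correlation of log2(CPM + 1) included 2 of the members, *Lck* (rank 1 of 16028, r = 0.843) and *Zap70* (rank 3, r = 0.796). *Cd8a* (r = 0.707), *Cd4* (0.655) and *Cd3g* (0.644) followed, and *Cd3d*, encoded next to it, was lowest at 0.452 (rank 944). With group means removed these were 0.789, 0.720, 0.725, 0.723, 0.622 and 0.599, and *Cd8b1*, at 0.528 before, was then the lowest member at 0.517. Outside the members the 5 most like *Cd3e* in lungs were *Wbp11* (0.813), *Kcnab2* (0.796), *Mrgprc2-ps* (0.794), *Btg1* (0.791) and *Zfp36l2* (0.788). Across the 12 tumors the 5 were *Vcam1* (0.954), *Lcp2* (0.948), *Il21r* (0.947), *Ptprj* (0.944) and *Sirpa* (0.944), ahead of *Cd3d* (0.888, rank 47 of 13829), *Cd8a* (0.807), *Cd4* (0.805) and *Lck* (0.800), while *Cd3g* had the lowest value at 0.666, and 0.278 with group means removed. Without WT replicate 2 (n = 11) the same 5 genes led, with r between 0.944 and 0.955, and *Cd3g* was again lowest of the members at 0.667, while *Cd8a* and *Cd4* stood at 0.869 and *Lck* at 0.863, an alternative chosen after seeing the data. Points in each case share a tissue and libraries of similar depth, and counts of 1 to 141 limit any of these values.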

How the data were processed

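RNA from frozen tumors and lungs was extracted with RNeasy columns and sequenced paired-end from TruSeq stranded mRNA libraries. Per the labels, the authors aligned reads to mm10 with STAR and quantified genes with RSEM. The annotation release is not given in the sources used here, and positions are from GENCODE M21. The deposited RSEM counts are expected counts given as whole numbers, unnormalized. The deposited FPKM values were scaled by the authors for transcript length and depth.

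Counts were fitted with edgeR 4.0.16 (R 4.3.3, TMM, filterByExpr, quasi-likelihood test, Benjamini-Hochberg over all genes) in 3 fits: 12 tumors, 20 lungs and 24 samples of day 14, with one mean per group. The FDR limits were the study's, 0.05, and 0.25 for lungs. The study paired them with fold changes of 2 and 1.5, whereas genes pass here on FDR alone and the fold limit is an alternative. The SE is the log2 fold change divided by the root of F. Scripts were tested on simulated data. Libraries of a group differed by 2.43 to 14.95 chi-squared per degree of freedom over 72 pairs, so none was a repeat.

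Named are all 9 genes, the at most 4 genes of each list with the smallest p among those that passed, marker genes, and the 5 most like *Cd3e*. Members and lists were chosen with earlier results of these data known. DESeq2 1.42.0, other size factors, filters, fits, pseudocounts and left-out libraries were alternatives. Stranded libraries were used, but reads shared by overlapping genes stay uncertain.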

Additional observations from a re-analysis of the deposited data

Results flagged for a closer look

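Among 132 groups of 4 to 6 samples examined, 10 held a sample whose gap to its nearest neighbour was above Dixon's 95% critical value, and chance alone does so in about 1 group in 20. The WT tumor labelled replicate 2 accounted for 4 of these, with *Cd8b1* at 2.09 FPKM (next highest WT tumor 0.48), *Lck* at 15.78 FPKM (next 6.88), B cell markers summing to 71.29 CPM (next 4.987) and lymph node stroma markers summing to 70.51 CPM (next 4.752). The log2 ratio of *Cd8a* to *Cd4* was -2.519 in KO control lung replicate 1 (others -1.248 to -1.09) and -1.795 in WT control lung replicate 1 (others -1.137 to -1.073). That of *Cd3e* to *Ptprc* was -3.829 in WT tumor replicate 5 (next -4.633). NK cell markers summed to 69.99 CPM in WT control lung replicate 4 (next 47.37), neutrophil markers to 91.86 CPM in KO control lung replicate 3 (next 55.83) and lung epithelial markers to 8.206 CPM in KO tumor replicate 1 (next 4.382). The part of these cells in the values of the 9 genes was not tested.

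The difference between KO and WT hosts was larger in tumors than in lungs of day 14 for *Zap70*, by 1.596 on the log2 scale, in a direct test of that difference (SE 0.32, adjusted p = 0.0164, edgeR). With a replicate block in that fit the difference did not pass (adjusted p = 0.0683). *Zap70* was higher in each of the 6 KO tumors than in any WT tumor.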

How the results depend on the processing

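Counts of 1 to 141 per gene and library limited what could be tested. *Cd8b1* was not tested in tumors. The number of members that passed in tumors (3) was 1 with no filter (*Zap70*) and 0 with at least 10 counts in every sample, where 2 were left to test, and ran from 1 to 5 with 1 tumor left out. With at least 10 counts, the numbers were 1 in WT tumors against lungs (*Lck*, from 8), 0 in KO tumors against lungs (from 2) and 0 for the difference between tissues (from 1). In these fits of day 14 only *Cd4* and *Lck* were left to test, so the others were not tested rather than lost. In control lungs the number was 1 (*Zap70*, from 0). Fits of the compared groups alone gave 2 in control lungs and 1 (*Cd247*) in WT lungs with a tumor. With the fold limit, 1 (*Cd8b1*) was left in KO tumors against lungs. Leaving out 1 library gave 0 to 1 in control lungs, 7 to 9 in WT and 1 to 3 in KO tumors against lungs.

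Samples were not paired by replicate number, and whether equal numbers mark the same mouse is not known. Correlations of same-numbered deviations ran from -0.350 to 0.244, and no pair of groups had all above 0.1. Those of KO tumors with KO lungs ran from 0.05 to 0.178. Correlations of this size cannot tell whether a tumor and a lung came from the same mouse. With a replicate block the number for the difference between tissues was 0 in place of 1 (*Zap70*, adjusted p = 0.0683), 3 stayed 3 in tumors, and the values changed by the block in sign are given next. In KO tumors against lungs, where these log2 fold changes were near 0, *Cd3g* was 0.01353 with the block, *Cd4* was -0.05623 (DESeq2), -0.05282 (RLE size factors), -0.011 (no filter) and -0.07552 (at least 10 counts), and *Cd8a* was -0.07454, -0.0535 and -0.01161 under the first 3 of these and -0.07763 with the block. *Cd8a* to *Cd4* was -0.05362 in tumors with a pseudocount of 1 and 0.07801 in KO lungs with CPM, and *Cd4* to *Cd3e* was -0.02291 in WT lungs with CPM. With CPM in place of FPKM, 0 rather than 2 members had higher means in WT lungs with a tumor than in WT controls. The cause was not tested.

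Leaving out 1 library in turn also changed the sign of log2 fold changes near 0 that had not passed. In KO lungs with a tumor against controls, *Cd3d* ran from -0.1951 to 0.1564, *Cd247* from -0.2253 to 0.05636 and *Cd8b1* from -0.04518 to 0.3111. Between genotypes at 14 days, *Cd3g* ran from -0.04204 to 0.2453, *Cd247* from -0.14 to 0.06603, *Cd8a* from -0.04856 to 0.2704, *Cd8b1* from -0.1368 to 0.3003 and *Lck* from -0.05599 to 0.1496, and in controls *Cd3d* ran from -0.2481 to 0.09077. In KO tumors against lungs, *Cd3g* ran from -0.1853 to 0.1033, *Cd4* from -0.09897 to 0.09902 and *Cd8a* from -0.2228 to 0.1424. Log2 ratios of *Cd8a* to *Cd4* ran from -0.5008 to 0.02488 in KO lungs with a tumor against controls and from -0.4208 to 0.08647 between genotypes in controls. In WT lungs with a tumor against controls, *Cd8b1* to *Cd8a* ran from -0.3579 to 0.02334 and *Cd4* to *Cd3e* from -0.1228 to 0.3177.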

Other observations

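Genes of resting T cells were mostly lower in tumors than in lungs. Of 10 such genes, 10 were lower in WT tumors than in WT lungs of day 14 and 9 were lower in KO tumors than in KO lungs, with median log2 fold changes of -2.21 and -1.82 (edgeR, FDR of 0.05), beside 38.4% and 37.2% of all genes. *S1pr1*, the receptor by which T cells leave lymphoid organs, was at -4.90 in WT and -4.37 in KO hosts, *Klf2*, which maintains it, at -2.26 and -2.03, and *Ets1*, a transcription factor, at -1.70 and -1.68. These 3 are also expressed by endothelial cells. *Lef1* and *Tcf7*, related transcription factors of naive T cells, were at -3.16 and -2.15 in WT and at -3.14 and -1.97 in KO hosts. Of the subset genes, some were higher in tumors of both genotypes, where 75.5% (WT) and 74.2% (KO) of all genes passed in either direction. Among them were *Foxp3*, the factor of regulatory T cells, with 1.11 in WT and 1.18 in KO hosts, *Ikzf2* with 1.2 and 1.56, *Gata3* with 1.41 and 1.23 and *Il2ra*, the interleukin 2 receptor alpha chain, with 1.06 and 1.88. *Tbx21*, the factor of type 1 helper T cells, was lower in WT tumors at -2.27. *Gata3* and *Ikzf2* averaged 10.8 and 9.68 FPKM in KO tumors, above *Cd3e* at 3.45. Without WT tumor replicate 2 all 10 resting T cell genes were again lower in WT tumors, with a median of -2.34, *Lef1* at -3.73 and *Tcf7* at -2.46, and *Foxp3* (1.05), *Ikzf2* (1.18), *Gata3* (1.47) and *Il2ra* (1.15) were again higher. The part of cells other than T cells in these values was not tested.

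In lungs, *Gata3* (log2 fold change 1.10, adjusted p = 0.208) and *Bcl6* (0.41, less than 1.5-fold, adjusted p = 0.218) were the 2 of 10 subset genes tested that rose in KO lungs with a tumor against KO controls, and *Klf2*, the 1 of 10 resting T cell genes that passed, fell by 0.67 on the log2 scale in WT lungs with a tumor (adjusted p = 0.202), at the FDR of 0.25 by edgeR. Of all genes, 0.78% rose in KO lungs, and 1.18% rose and 1.15% fell in WT lungs. Among neutrophil markers, read against the same shares, 2 of 5 rose in KO lungs with a tumor and 3 of 5 in WT lungs, *S100a8* by 2.02 and *S100a9* by 2.05 in the latter.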
